A study of Staurois parvus with 11 samples.

Results

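Whole brain and spinal cord of adult male Staurois parvus, the foot-flagging Bornean rock frog, were compared by RNA sequencing. The comparison rests on 6 of the 11 libraries of the series, chosen by their tissue labels: 2 of brain and 4 of spinal cord. The other 5 libraries are of leg muscle (thigh). All frogs were adult males of a captive colony, with no treatment, transgene or genotype given, and tissue was taken fresh into a stabilizing solution. Whole tissues were sequenced, so each library is a mixture of neurons, glia, vessels and coverings. In such bulk samples, fewer cells of a type and less RNA per cell cannot be told apart. The comparison asks which transcripts separate brain from spinal cord beyond the HOX genes, which mark position along the spinal cord and hindbrain, and the transcription factors that pattern forebrain and midbrain.

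The vertebrate brain and spinal cord share their basic cell types but differ in what they connect. The brain holds the hypothalamus, whose neurons release peptides into blood and brain, the light-sensitive pineal and deep brain photoreceptors, and the forebrain and midbrain circuits whose dendrites are rich in calcium and calmodulin signaling proteins. The spinal cord holds motor neurons and their interneurons, cells that touch the fluid of the central canal, and large tracts of long axons wrapped in myelin.

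Reads counted in transcripts numbered 15728514 and 22686688 in the brain libraries and 12339432 to 18607450 in the spinal cord libraries, which is 24.7% to 28.1% of all entries per library. The correlation across transcripts of log2 CPM (counts per 1e+06 reads counted in transcripts) was 0.961 between the brain libraries and 0.916 to 0.963 between spinal cord libraries. Between tissues it was 0.884 to 0.921, so these ranges overlap. The chi-square of counts per degree of freedom, which rises as 2 libraries disagree, was 201 between the brains. It was 68.9 to 122.9 between spinal cord libraries. Against the spinal cord libraries it was 149.5 to 194.4 for brain library 1 and 272.3 to 449 for brain library 2. By this measure brain library 1 was no closer to brain library 2 than to the spinal cord. The measure also rises with the number of reads, which was highest in brain library 2. By correlation, brain library 1 was closer to brain library 2 (0.961) than to any spinal cord library (0.884 to 0.916). The deposited names of spinal cord libraries 1 and 2 carry the tag L2, read here as lane 2, and those of the other libraries L1, read as lane 1. Sarcomere transcripts, defining markers of muscle, summed to 0.0216% and 0.0636% of the leg muscle level in the brain libraries and to 0.425%, 0.438%, 0.0672% and 0.0274% in spinal cord libraries 1 to 4. Names of transcripts are those of the best protein match in the deposited annotation, often from a distant species. Levels are TMM-normalized CPM, counted per transcript and not per length, so they are compared between libraries and not between genes.

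After a filter on low counts, 13923 transcripts were tested, of which 12291 carried a name. With a Benjamini-Hochberg adjusted p under 0.05 from the quasi-likelihood test of edgeR, brain exceeded spinal cord in 166 transcripts (1.19%) and spinal cord exceeded brain in 117 (0.84%), together 283 (2.03%). Among named transcripts these were 157 (1.28%) and 106 (0.862%). Counts of calls in the gene lists below are to be read beside the 1.19% and 0.84% over all transcripts. Where a list has few calls, its share rests on few transcripts. HOX genes and forebrain and midbrain factors made up 36 of the brain calls and 22 of the spinal cord calls, which left 121 and 84 named transcripts. The median fold was 14.4 among the brain calls and 7.23 among the spinal cord calls, and the smallest were 2.11 and 2.31. In the other tissue the mean was under 1 CPM for 77 of 166 and 46 of 117. The libraries of the tissues did not overlap for any of the 283, beside 13.6% of all transcripts with both brains above every spinal cord library and 12.6% with every spinal cord library above both brains. Where libraries of a called transcript are said below not to overlap, this describes its values and adds no support to the call. An exact permutation test of 2 against 4 libraries cannot give a two-sided p under 0.0667, so calls rest on the spread that the fit shares across transcripts.

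**Figure D1:**
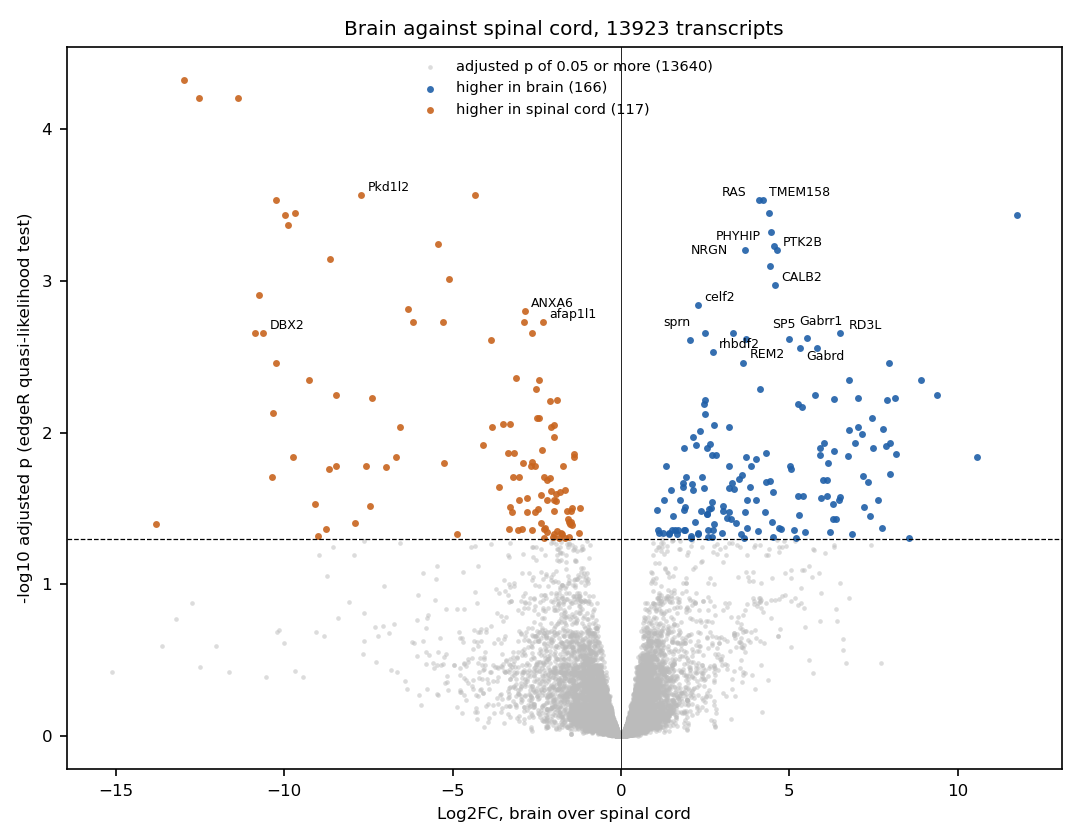
Each point is 1 of 13923 transcripts, with the Log2FC of brain over spinal cord on the x axis and the negative log10 of the adjusted p on the y axis; the dashed line marks an adjusted p of 0.05. The 166 transcripts higher in the brain lie to the right and the 117 higher in the spinal cord to the left, and the labelled ones are named transcripts outside the HOX and forebrain and midbrain lists that were called in each of 11 fits that left out 1 library.

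Many calls were lost when libraries were left out. The fit without the lane 2 spinal cords also has fewer spinal cord libraries. No fit left out both lane 1 spinal cords, so a part of lane in the loss was not tested. Leaving out spinal cord library 3, of lane 1, alone took the brain calls to 71. Of the 166 brain calls, 117 were lost without brain library 1, 144 without brain library 2 and 140 when both spinal cords of lane 2 were left out. Of the 117 spinal cord calls, 93, 100 and 63 were lost in these fits. In each of the 11 fits without 1 library, 20 brain calls and 16 spinal cord calls were made again. With a brain library left out, the lone brain is assumed to vary like the libraries of the other tissues. Outside the HOX and the forebrain and midbrain lists these were 14 and 4 named transcripts, and every other transcript named here lost its call in at least 1 of the 11 fits. Among the 14 and 4, RD3L, Gabrr1 and PKD1L2 transcript 012589-RA lost their calls when at least 10 counts in 5 libraries were required.

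Of those 14, 3 belong to the list of calcium and calmodulin signaling genes of the neuronal cell body and dendrite. NRGN (neurogranin, which binds calmodulin in dendritic spines) was at 85.7 and 84.7 CPM in the brain libraries and at 3.87, 8.43, 8.37 and 6.01 CPM in the spinal cord. PTK2B (a calcium-responsive tyrosine kinase) was at 13.3 and 10.6 CPM against 0.344, 0.312, 0.552 and 0.671 CPM. CALB2 (calretinin, a calcium-binding protein of many interneurons) was at 84.2 and 72.2 CPM against 2.07, 3.97, 4.59 and 2.43 CPM. Both brains were high and no library overlapped with the other tissue for any of them. Their Log2FC was 3.67 ± 0.39 (SE), 4.64 ± 0.49 and 4.58 ± 0.52, with edgeR adjusted p of 0.000627, 0.000627 and 0.00107. The median Log2FC of the 30 transcripts in the list of calcium and calmodulin signaling genes was 0.87, beside 0 over all transcripts. In the spinal cord 0 were called, and in the brain 7 (23.3%), beside 1.19% of all transcripts. The others were CABP2, RASAL1, Camk2a and LRRC7, of which all but CABP2 were named after their values were seen. CABP2, a calmodulin-like calcium-binding protein, had no read in the spinal cord and was at least 54.9-fold higher in the brain by the limit that 3 counts over the group allow. Without brain library 1, brain library 2 or the spinal cord libraries of lane 2, 3 of the 7 calls were left.

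RAS, which had the lowest p of all brain calls, was at 65.5 and 86.8 CPM in the brain and 4.17, 4.77, 4.07 and 4.60 CPM in the spinal cord (Log2FC 4.11 ± 0.37, edgeR adjusted p = 0.000296). Its name comes from a fungal Ras-like protein, so it says only that the product is a small GTPase of that family. TMEM158, a membrane protein first described as induced by Ras, was at 39.2 and 66.5 CPM against 3.06, 3.48, 3.23 and 1.5 CPM (Log2FC 4.23 ± 0.39, edgeR adjusted p = 0.000296). REM2, a GTPase that lowers calcium channel activity, was at 20.5 and 16.8 CPM against 0.957, 1.83, 1.48 and 1.44 CPM (Log2FC 3.71 ± 0.48, edgeR adjusted p = 0.00242). The groups were well apart for each, with the lowest brain library above the highest spinal cord library. RAS and REM2 were joined by RAB40B, rasgef1a, RASAL1, ARHGAP12 and Tiam2, so that 7 regulators and members of small GTPase pathways were called higher in the brain (Log2FC 1.48 to 4.11) and 3 higher in the spinal cord, namely Rgl2, ARHGEF28 and STARD13 (-2.38 to -1.39). This grouping was made after the values were seen and has no test. The number of such transcripts tested was not counted, so no share can be set beside the 1.19% and 0.84% over all transcripts.

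**Figure D2:**
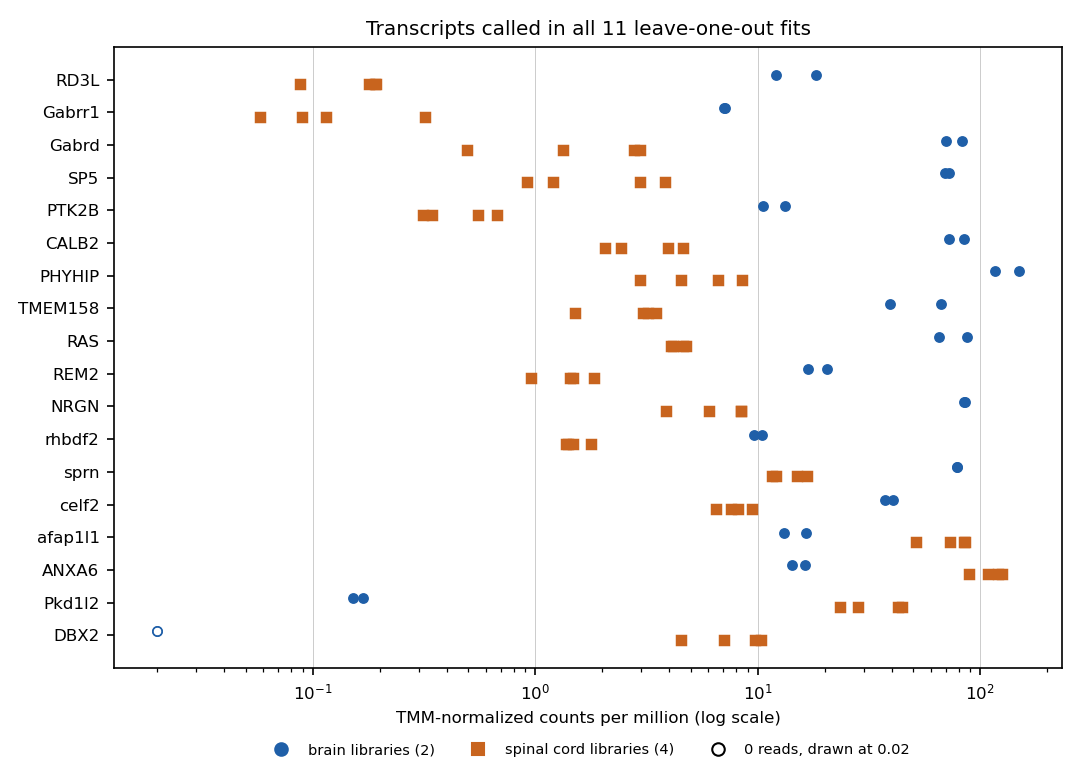
Each row is a named transcript outside the HOX and forebrain and midbrain lists that was called in each of the 11 leave-one-out fits; circles are the 2 brain libraries and squares the 4 spinal cord libraries, on a log axis of TMM-normalized CPM. Brain and spinal cord libraries are apart in all 18 rows, as they are for every call. RD3L, at 12.1 and 18.2 CPM in the brain and at most 0.192 CPM in the spinal cord, is at the top. DBX2, without reads in the brain, is at the bottom.

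The remaining brain transcripts of this stable set were of several kinds. PHYHIP, a brain protein that binds phytanoyl-CoA hydroxylase, was at 149 and 116 CPM against 2.95, 8.47, 4.51 and 6.61 CPM (Log2FC 4.56 ± 0.47, edgeR adjusted p = 0.00059). The RNA-binding protein celf2 was at 40.5 and 37.4 CPM against 7.58, 6.51, 9.42 and 8.12 CPM (Log2FC 2.30 ± 0.27, edgeR adjusted p = 0.00144). The transcription factor SP5, a target of Wnt signaling, was at 72.7 and 69.8 CPM against 0.918, 1.20, 2.96 and 3.83 CPM (Log2FC 4.99 ± 0.65, edgeR adjusted p = 0.00242). Each had a narrow range in the brain relative to its distance from the spinal cord. The membrane proteins sprn (shadow of prion protein) and rhbdf2 (an inactive rhomboid protease) were called with Log2FC of 2.50 ± 0.32 and 2.73 ± 0.37, and rhbdf2 lost its call without the lane 2 spinal cords.

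Some subunits of receptors for GABA, the main inhibitory transmitter of the brain, were called higher there. Gabrd, the delta subunit of extrasynaptic GABA-A receptors, was at 82.6 and 70.1 CPM in the brain and 2.95, 1.34, 0.494 and 2.78 CPM in the spinal cord (Log2FC 5.33 ± 0.71, edgeR adjusted p = 0.00276). Gabrr1, a subunit known from retinal GABA receptors, was at 7.11 and 7.03 CPM against 0.115, 0.0892, 0.0581 and 0.320 CPM (Log2FC 5.54 ± 0.72, edgeR adjusted p = 0.00237). Both were called in each leave-one-out fit, and no library overlapped. Gabrb2 was also called (Log2FC 2.21 ± 0.48), so 3 of 9 GABA and glycine receptor transcripts (33.3%) were higher in the brain, beside 1.19% of all transcripts. In the spinal cord 0 were called (median Log2FC 1.22). Of 28 GABA and glycine receptor symbols listed, 9 were tested, so a pattern by subunit type cannot be read from them. Transcripts for making and moving these transmitters had 1 call among 12, slc6a9, the glial glycine transporter GlyT1. It was higher in the spinal cord, at 76.7, 198, 188 and 69.4 CPM against 24.4 and 18.6 CPM in the brain (Log2FC -2.63 ± 0.47, edgeR adjusted p = 0.0156). The vesicular transporter slc32a1, which loads both transmitters, was at 293 and 260 CPM in the brain and 203 to 296 CPM in the spinal cord, and the libraries overlapped.

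Ion channel lists had few calls. KCNC2, a fast potassium channel of rapidly firing neurons, was at 82.6 and 87.2 CPM against 12.8, 13.2, 12.3 and 13.6 CPM (Log2FC 2.71 ± 0.47, edgeR adjusted p = 0.0141), with little spread in either tissue. With KCNMB3, 2 of 44 potassium and HCN channel transcripts (4.5%) were called higher in the brain, beside 1.19% of all transcripts. In the spinal cord 0 were called (median Log2FC 0.28). Among 36 sodium and calcium channel transcripts, SCN2A and Scn2b were called higher in the brain (Log2FC 1.67 ± 0.38 and 1.12 ± 0.25) and 32 had a positive Log2FC (median 1.06). In the glutamate list, 2 of 22 (9.1%) were called in the brain, beside 1.19% of all transcripts. These were GRM2 (a presynaptic metabotropic receptor, Log2FC 3.68 ± 0.64) and SLC1A3 (the glial glutamate transporter GLAST, Log2FC 5.05 ± 0.93). The called SLC1A3 transcript was at 7.53 and 4.79 CPM in the brain and at 0.153, 0.223, 0.349 and 0 CPM in the spinal cord. A second gene ID of that name was at 325 and 283 CPM in the brain and 511, 716, 916 and 633 CPM in the spinal cord and was not called (Log2FC -1.19 ± 0.46, edgeR adjusted p = 0.26), so the name SLC1A3 has no common direction. It was also the only call among 23 astrocyte and radial glia transcripts, whose median Log2FC was 0.01. In these lists no call held when brain library 2 was left out, and KCNMB3 gave the 1 call left when brain library 1 was left out.

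Neuropeptides and neurohormones separated the tissues more widely. Of 36 transcripts in that list, 11 were called higher in the brain (beside 1.19% of all transcripts) and 1 in the spinal cord, with a median Log2FC of 2.49. The 4 with the lowest p were QRFP, UCN, gal and NPS. QRFP, UCN and NPS, but not gal, lost their calls when at least 10 counts in 5 libraries were required. QRFP, a feeding-related RFamide peptide of the hypothalamus, was at 5.95 and 9.67 CPM against 0.0383, 0, 0.116 and 0.0959 CPM (Log2FC 6.77 ± 0.97, edgeR adjusted p = 0.00453). Galanin (gal) was at 64.2 and 112 CPM against 1.34, 0.624, 0.0872 and 2.30 CPM (Log2FC 6.33 ± 0.95, edgeR adjusted p = 0.00603). Both brain libraries stood far above all spinal cord libraries. Urocortin (UCN) and neuropeptide S (NPS) each had 1 read in all spinal cord libraries together, which gives ratios of 213 (95% counting interval 37.6 to 8482) and 370 (65.6 to 14660).

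Further peptides are named here after their values were seen. Vasotocin, the amphibian counterpart of vasopressin, was at 276 and 290 CPM in the brain and 1.15, 2.01, 1.63 and 11.4 CPM in the spinal cord. Mesotocin, the counterpart of oxytocin, was at 125 and 218 CPM against 0.153, 0.0446, 0 and 2.65 CPM. For both, spinal cord library 4 was the highest of its tissue and still far below the brain. Their Log2FC was 6.12 ± 1.22 and 7.87 ± 1.34 (edgeR adjusted p = 0.0261 and 0.0123). Neurotensin (NTS) was at 202 and 695 CPM against 22.0, 14.1, 15.4 and 38.7 CPM, so the brain libraries differed from each other by more than the spinal cord libraries did. CARTPT, Cort, RLN3 and NPFF were also called, the first in 1 of its 4 gene IDs tested. Bombesin, outside the list, was at 64.3 and 165 CPM against 1.38, 3.79, 0.262 and 2.17 CPM. Without brain library 1, 7 of the 11 brain calls were left, and without brain library 2 none. Without the spinal cord libraries of lane 2, 1 was left. The median Log2FC of the list was 1.86 to 2.54 in these 3 fits.

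Receptors for peptides followed in smaller number, with 4 of 41 called higher in the brain (npy1r, NPY5R, gpr54 and 1 of 3 gene IDs named Galr2) and 1 in the spinal cord (GNRHR2), at a median Log2FC of 1.03. NPY5R, a feeding-related neuropeptide Y receptor, was at 36.6 and 48.4 CPM against 10.6, 5.26, 5.26 and 6.29 CPM (Log2FC 2.63 ± 0.54, edgeR adjusted p = 0.0319). The transcript gpr54, named for the kisspeptin receptor, was at 5.19 and 7.62 CPM against 0.804, 0.490, 0.407 and 0.415 CPM (Log2FC 3.59 ± 0.53, edgeR adjusted p = 0.0190). GNRHR2, a receptor for gonadotropin-releasing hormone, went the other way, at 4.13 and 3.61 CPM in the brain and 21.2, 26.8, 23.8 and 13.5 CPM in the spinal cord (Log2FC -2.46 ± 0.51, edgeR adjusted p = 0.0319). All 4 spinal cord libraries exceeded both brains there. In this list 1 brain call was left when brain library 1 was left out and 0 calls when brain library 2 or spinal cord library 3 was.

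Serotonin receptors made up most of the calls among monoamine receptors. Of 29, 6 (20.7%) were called higher in the brain, beside 1.19% of all transcripts. In the spinal cord 1 (3.4%) was called, beside 0.84%, and the median Log2FC was 0.97. HTR1D was at 16.4 and 34.5 CPM against 4.13, 1.43, 1.6 and 3.9 CPM (Log2FC 3.2 ± 0.58, edgeR adjusted p = 0.0166). The transcript named 5HT1E was at 10.8 and 15 CPM against 1.57, 0.624, 0.872 and 0.0959 CPM (Log2FC 4.02 ± 0.81), and HTR6 at 5.07 and 5.83 CPM against 0.727, 0.624, 0.901 and 0.384 CPM (Log2FC 3.04 ± 0.62). No library of the tissues overlapped for these receptors. Named after their values were seen, htr1a was called as well (Log2FC 2.08 ± 0.47), and so was HTR3A, with 1 read in the spinal cord (ratio 136, counting interval 23.8 to 5457). Of the adrenergic receptors, ADRA2B was higher in the brain (Log2FC 3.21 ± 0.52), whereas ADRA1A, also named after its values were seen, was higher in the spinal cord, at 10.3, 11.9, 8.26 and 10.1 CPM against 3.40 and 3.05 CPM (Log2FC -1.65 ± 0.38, edgeR adjusted p = 0.0497). When brain library 1 was left out there was 1 call in this list, and when brain library 2 or lane 2 was left out there was none.

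The enzymes behind these transmitters were called only where they were nearly absent from the spinal cord. TPH1, which starts serotonin and melatonin synthesis in pineal and gut, was at 1.34 and 1.93 CPM in the brain, with 2 reads in the spinal cord (ratio 94.1, counting interval 25.4 to 786). HDC, which makes histamine, was at 2.22 and 1.51 CPM with 2 reads in the spinal cord (ratio 106, 28.7 to 882). These were the 2 calls among 18 transcripts of monoamine synthesis and transport, whose median Log2FC was 0.28. In the cholinergic list 1 of 18 was called, the nicotinic subunit CHRNB3, at 22.9 and 34.7 CPM against 2.41, 0.713, 1.02 and 0.991 CPM (Log2FC 4.48 ± 0.97, edgeR adjusted p = 0.0389). CHAT, which makes acetylcholine in motor neurons, was at 1.91 and 1.57 CPM in the brain and 14.1, 3.88, 5.23 and 2.27 CPM in the spinal cord and was not called (Log2FC -1.86 ± 1.08, edgeR adjusted p = 0.499).

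Photoreceptor and visual cycle transcripts were present in both brain libraries. Of 35 in that list, 9 (25.7%) were called higher in the brain, beside 1.19% of all transcripts. In the spinal cord 0 were called, and 31 of the list had a positive Log2FC (median 2.44). RD3L, named for a relative of a photoreceptor protein, was at 12.1 and 18.2 CPM against 0.191, 0.178, 0.0872 and 0.192 CPM (Log2FC 6.52 ± 0.83, edgeR adjusted p = 0.00221). RLBP1, a retinaldehyde carrier of the visual cycle, was at 3.92 and 6.56 CPM against 0.230, 0.0446, 0.465 and 0.128 CPM, and prph2, a protein of outer segment discs, at 2.58 and 6.58 CPM against 0.191, 0, 0 and 0 CPM. Brain library 2 was the higher brain in each of these 3. RD3L, RLBP1 and prph2 each lost their calls when at least 10 counts in 5 libraries were required. Named after their values were seen, the red-sensitive opsin opn1lw1 was at 28.9 and 47.4 CPM against 2.37, 0.713, 0.0872 and 0.703 CPM, and S-arrestin, RPE65 and GUCA1A were called too. So were 4 proteins with no symbol in the annotation, Purpurin, a cone cyclic nucleotide-gated channel, a melatonin receptor and Opsin-VA (Log2FC 3.3 to 6, the receptor with 1 read in the spinal cord). Of the 9 calls 1 was left in the fits lacking brain library 1, brain library 2 or spinal cord library 2, with 3 left in the fit lacking spinal cord library 3 and 2 in that lacking spinal cord library 4. The median Log2FC of the list was 1.81 to 4.13 over all settings tried. Pineal, eye and deep brain tissue were not sequenced separately, so these sources cannot be told apart.

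Pituitary transcripts were few and uneven. The glycoprotein hormone subunit cga was at 6.83 and 39.0 CPM in the brain and 0, 0.0892, 0.0872 and 0.479 CPM in the spinal cord (Log2FC 7.04 ± 1.14, edgeR adjusted p = 0.00919). The factor pitx1 was called as well, with 3 reads in the spinal cord (ratio 43.8, counting interval 14.5 to 217), so 2 of 9 were called. The precursor pomc was at 1275 and 127 CPM in the brain and 5.09, 0.535, 6.16 and 41.0 CPM in the spinal cord, and was not called (Log2FC 5.73 ± 1.39, edgeR adjusted p = 0.0593). For cga brain library 2 was the higher brain and for pomc brain library 1.

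**Figure D3:**
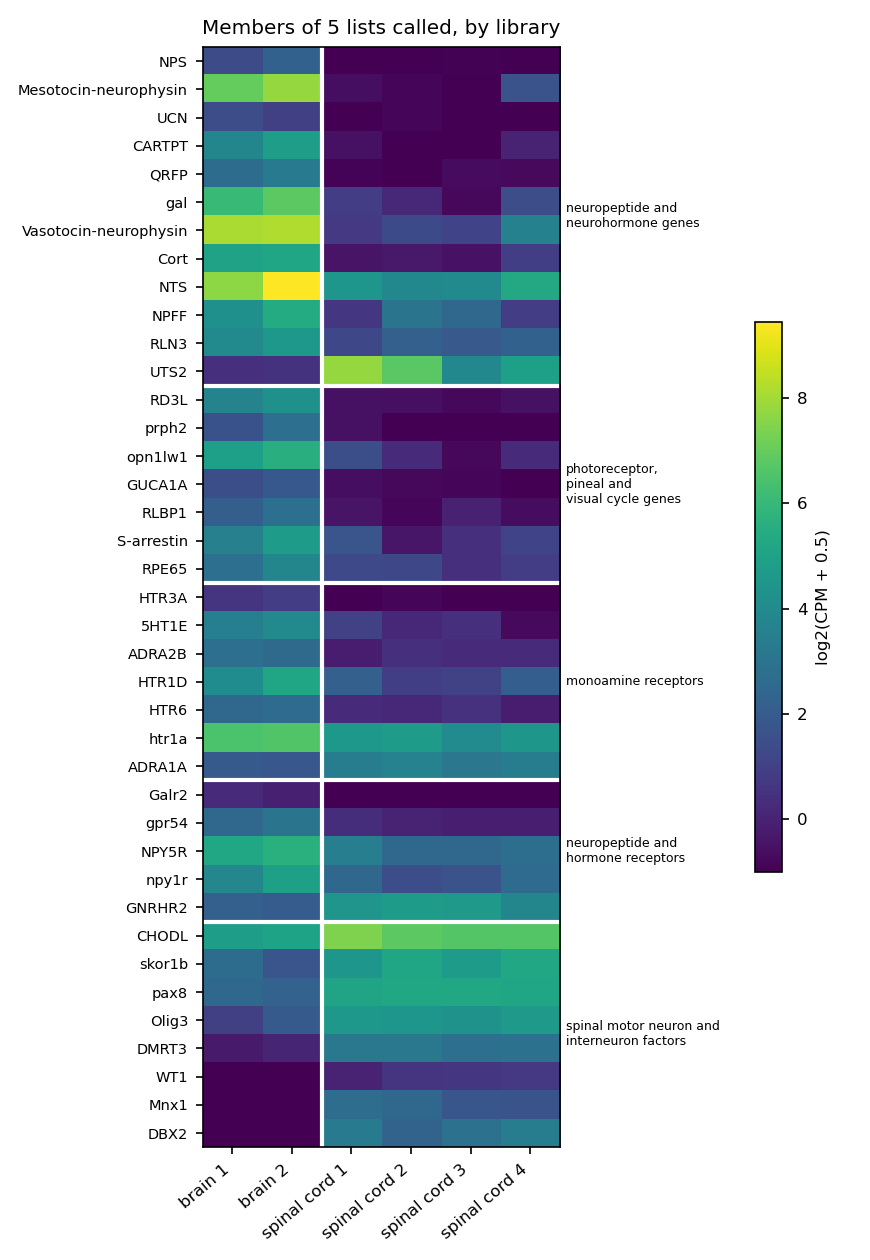
Rows are called members of 5 gene lists and columns the 6 libraries, with color giving log2(CPM + 0.5). Brain columns are brighter for the peptides other than UTS2, for photoreceptor genes and for most receptors. Spinal cord columns are brighter for UTS2, ADRA1A, GNRHR2 and the 8 spinal factors and markers.

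Activity-regulated genes, which neurons switch on after firing, had 5 brain calls and 1 spinal cord call among 29 (median Log2FC 0.62). Egr4 was at 42.0 and 105 CPM against 2.33, 12.5, 1.57 and 3.80 CPM (Log2FC 3.87 ± 0.70, edgeR adjusted p = 0.0166). NPAS4 was called in 2 sets of its transcripts, which make up 2 of the 5 brain calls. The sets share transcripts and are not independent. The set with more reads was at 15.9 and 34.2 CPM against 1.07, 3.92, 0.872 and 3 CPM (Log2FC 3.50 ± 0.66, edgeR adjusted p = 0.0201). Brain library 2 was higher than brain library 1 and spinal cord library 2 the highest of its tissue for Egr4 and NPAS4. The list's best known members were not called, FOS being at 57.0 and 180 CPM against 32.4, 199, 50.9 and 70.9 CPM (edgeR adjusted p = 0.941), with overlapping libraries. Jund and Egr3 were the other brain calls, and CCN1, a matrix protein, was the spinal cord call in 1 of its 2 gene IDs (Log2FC -3.63 ± 0.70). In the fit lacking brain library 1 there was 1 brain call, and in that lacking brain library 2 none.

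Transcription factors outside the lists with calls in the brain numbered 10, a grouping made after the values were seen (median Log2FC 3.52). In the spinal cord 1 was called, Vgll3 (Log2FC -3.84). Factors tested outside the lists were not counted, so these calls have no share to set beside that of all transcripts. The brain calls included BRN3 (a POU factor, at 13.8 and 7.42 CPM against 0.115, 0.0446, 0 and 0 CPM), neurod4, Hes6, sox1, sox14 and SP5. Estrogen receptor beta (ESR2) was the only call among 23 transcripts of steroid receptors, cofactors and synthesis, at 2.03 and 1.96 CPM against 0.191, 0.268, 0.262 and 0.128 CPM (Log2FC 3.21 ± 0.67, edgeR adjusted p = 0.0336). The androgen receptor transcript ar was at 0.0607 and 0 CPM in the brain and 0.306, 0.357, 0.291 and 0 CPM in the spinal cord, too few reads for a comparison (edgeR adjusted p = 0.433). OTX2, a forebrain and midbrain factor also used by the choroid plexus, was the only call among 50 choroid plexus and ependymal transcripts (median Log2FC -0.01). Esm1 was the only call among 19 endothelial transcripts, higher in the brain at 28.7 and 86.1 CPM against 13.8, 10.3, 6.63 and 8.02 CPM while the list's median Log2FC was -0.81.

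On the spinal cord side, factors and markers of motor neurons and spinal interneurons had 8 calls of 31, beside 0.84% of all transcripts called. None was called in the brain (median Log2FC -1.44). DBX2, a factor of ventral interneuron progenitors, had no read in the brain and was at 9.76, 4.5, 7.07 and 10.3 CPM in the spinal cord, at least 181-fold higher by the floor of 3 counts over the group (edgeR adjusted p = 0.00221). It was called in each leave-one-out fit. Mnx1, a motor neuron factor, had no read in the brain either and was at 6.12, 5.08, 2.96 and 2.75 CPM, at least 96.8-fold higher (edgeR adjusted p = 0.0145). DMRT3, which marks commissural interneurons of locomotor circuits in mouse and horse, was at 8.57, 8.56, 6.51 and 7.22 CPM against 0.334 and 0.560 CPM (Log2FC -4.09 ± 0.54, edgeR adjusted p = 0.0120). CHODL, a marker of fast motor neurons in mouse, was at 169, 113, 100.4 and 99.7 CPM against 28.1 and 32.7 CPM (Log2FC -1.99 ± 0.32, edgeR adjusted p = 0.00887). All 4 spinal cord libraries were above both brains for each of these. The other calls, named after their values were seen, were pax8, WT1, Olig3 and skor1b. Leaving out either brain library left 1 call in this list, and without lane 2, 2 were left.

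A run of calls in the spinal cord outside the HOX genes carried the name PKD1L2, for a polycystin-1-like receptor. In fish and mouse the related channel PKD2L1 marks neurons that contact the cerebrospinal fluid, and no tested transcript was named PKD2L1. Transcript 012589-RA was at 0.152 and 0.168 CPM in the brain and 23.5, 28.1, 44.6 and 42.7 CPM in the spinal cord (Log2FC -7.72 ± 0.67, edgeR adjusted p = 0.000272). It was called in each leave-one-out fit. Transcripts of the gene IDs that follow directly, 012590-RA, 012590-RB, 012591-RA and 012593-RA, were called in the same direction . Those of 012591-RA and 012593-RA had no read in the brain and were at least 49- and 58.3-fold higher in the spinal cord, and 012590-RB had 3 reads there (ratio 203, counting interval 69.1 to 984), so 5 transcripts of 4 gene IDs with this name were higher in the spinal cord. The unnamed transcript 012592-RA, in the same run of IDs, was at 0.0304 and 0 CPM against 2.45, 6.73, 13.9 and 9.11 CPM (1 read in the brain, ratio 589, counting interval 105.4 to 23270, edgeR adjusted p = 0.0173). Whether these models are pieces of 1 gene was not tested, so they are not counted as independent.

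Urotensin-2 (UTS2), a peptide made by spinal motor neurons in frogs, was the only neuropeptide call in the spinal cord. It was at 218, 108, 14 and 28.9 CPM there and at 0.880 and 0.925 CPM in the brain (Log2FC -6.67 ± 1.18, edgeR adjusted p = 0.0146). The libraries of lane 2, spinal cord 1 and 2, were the high ones, and those of lane 1 still exceeded both brains. The related UTS2B had the same order, 130, 55.7, 3.60 and 7.83 CPM against 0.698 and 1.09 CPM, and was not called (edgeR adjusted p = 0.167). Lane was not the only thing that could differ between these spinal cords, and its part in the spread was not tested. In the list of fluid-contacting neuron genes, 6 of 15 transcripts were called in the spinal cord, namely the 5 PKD1L2 transcripts above and UTS2. UTS2, described above as a motor neuron peptide, does not mark fluid-contacting neurons alone, so its call cannot be assigned to them. Whether the PKD1L2 transcripts, of 4 gene IDs, are pieces of 1 gene was not tested. The count and the median of this list are therefore not over independent members. The 2 brain calls were gata2 at 15 and 15.1 CPM against 3.71, 4.91, 3.49 and 1.82 CPM (Log2FC 2.11 ± 0.41) and GATA3 (Log2FC 2.29 ± 0.52). Leaving out either brain library left 1 spinal cord call and no brain call of this list, and its median Log2FC, -0.92, was -6.16 to 0.64 over the settings tried.

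Myelin and oligodendrocyte transcripts were called 9 times of 34 (26.5%) in the spinal cord, beside 0.84% of all transcripts, and not in the brain. The median Log2FC was -1.11, and 30 of 34 had a negative Log2FC. Myrf, the factor that switches on myelin genes, was at 15, 22.6, 32 and 23.0 CPM against 4.10 and 3.22 CPM (Log2FC -2.66 ± 0.48, edgeR adjusted p = 0.0167). CARNS1, which makes carnosine in oligodendrocytes and muscle, was at 870, 722, 1211 and 1331 CPM against 180 and 300 CPM (Log2FC -2.10 ± 0.40) and at a mean of 923 CPM in leg muscle; it was named after its values were seen. HAPLN2, CNP, sox10, gltp-a, Abca2, qki-b and Tspan15 were the other calls. The median differed from 0 in the same direction for each of the 8 pairs of a brain and a spinal cord library (-1.48 to -0.49), whereas 0 calls were left without brain library 1, 1 without brain library 2 and 3 without lane 2.

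Proteins around the axon and its nodes showed the same direction in fewer transcripts. Gldn (gliomedin), which gathers sodium channels at nodes of peripheral nerve in rodents, was at 4.06, 5.08, 8.75 and 9.01 CPM in the spinal cord and 0.0911 and 0.0841 CPM in the brain (Log2FC -6.19 ± 0.76, edgeR adjusted p = 0.00187). HAPLN3, a link protein of hyaluronan matrix, was at 29.4, 44.7, 52.8 and 33.0 CPM against 4.22 and 3.95 CPM (Log2FC -3.29 ± 0.52, edgeR adjusted p = 0.00882). With HAPLN2, 3 of 37 (8.1%) in that list were called in the spinal cord, beside 0.84% of all transcripts. In the brain 0 were called (median Log2FC -0.49). Of 30 Schwann cell and sensory ganglion transcripts, which would mark attached nerve roots, 0 were called by edgeR and the median Log2FC was -0.11. At an unadjusted p under 0.05 there were 3 toward the brain and 4 toward the spinal cord, DESeq2 called 1 and 2, and limma-voom 1 and 0. In the neurofilament and axonal cytoskeleton list 2 of 33 were called, nefl and prph, with Log2FC of -3.34 ± 0.58 and -3.33 ± 0.73 and a list median of -0.42.

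Annexins and their S100 partners, calcium-dependent membrane-binding proteins, had 5 spinal cord calls and 0 brain calls among 18 (median Log2FC -0.92). ANXA6 was called in 3 sets of transcripts of 1 gene ID, the strongest at 120, 125, 89.4 and 109 CPM against 14.2 and 16.4 CPM (Log2FC -2.85 ± 0.34, edgeR adjusted p = 0.00159), a set called in each leave-one-out fit. The 3 sets share transcripts and are not independent. The spinal cord libraries lay close together and far from the brain. The pair anxa2-a and S100A10, which form a complex, were at 309, 351, 307 and 453 CPM against 32.4 and 43.5 CPM (Log2FC -3.23 ± 0.68) and at 407, 390, 304 and 371 CPM against 97.0 and 149 CPM (Log2FC -1.58 ± 0.34). Leg muscle means were 242 CPM for that ANXA6 set and 477 CPM for anxa2-a, and carry-over at the mean sarcomere share of the spinal cord libraries would amount to 0.524% and 0.321% of their spinal cord levels. In this list 3 calls were left without brain library 1 and 1 without brain library 2.

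Several further spinal cord calls were related to actin, polyamines and proteases. The actin-binding protein afap1l1 was at 51.2, 73.1, 84.5 and 85.7 CPM against 13.2 and 16.6 CPM (Log2FC -2.31 ± 0.29, edgeR adjusted p = 0.00187) and was called in each leave-one-out fit. With KANK1, KANK2, gsn, Csrp2, mical2 and Coro6, 7 actin-related transcripts were called in the spinal cord (median Log2FC -1.91). In the brain 3 were called, Wipf3, SORBS2 and marcksl1b (median 1.44). The grouping was made after the values were seen. Actin-related transcripts tested were not counted, so no share can be set beside that of all transcripts. Spermine oxidase (SMOX), which breaks down the polyamine spermine, was called in 2 neighbouring gene IDs. The level of 004500-RA was 245, 287, 336 and 364 CPM against 53.2 and 54.7 CPM (Log2FC -2.51 ± 0.37, edgeR adjusted p = 0.0052), and that of 004499-RA was 104, 127, 149 and 133 CPM against 23.6 and 23.8 CPM. These copies could share reads, so they are not independent. The secreted protease Prss23 was at 8.88, 24.8, 46.2 and 43.3 CPM against 0.425 and 0.336 CPM (Log2FC -6.32 ± 0.75, edgeR adjusted p = 0.00155). PLEKHA6 and Spart were each called in 2 sets of transcripts of 1 gene ID, and TRIM36, P2ry2, Adgrd1 and VAMP711 (a vesicle protein name from Arabidopsis) also belonged to the 15 named spinal cord transcripts with the lowest p.

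Among transporters, SLC30A3, which fills synaptic vesicles with zinc, was at 35.1, 50.4, 44.6 and 24.4 CPM in the spinal cord and 3.73 and 3.03 CPM in the brain (Log2FC -3.51 ± 0.43, edgeR adjusted p = 0.00882), and no leg muscle library had a read of it. Including slc44a5 and slc39a9-a, 3 of 39 zinc, choline and amino acid carriers (7.7%) were called in the spinal cord, beside 0.84% of all transcripts. In the brain 0 were called (median Log2FC -0.49). In the lipid list 3 of 47 (6.4%) were called in the spinal cord, gltp-a, Neu3 and Abca2 (median -0.43). Cdh1 was the only call among 33 adhesion and guidance transcripts, at 4.94, 8.78, 7.30 and 14.8 CPM against 1.73 and 1.96 CPM (median -0.07). None of the calls in these 3 lists was left without brain library 1 or brain library 2.

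Fibroblast and meningeal transcripts had 3 spinal cord calls of 39 (7.7%), beside 0.84% of all transcripts. These were SERPINF1, COL11A1 and thbs4, and the list's median Log2FC was -1.46. COL11A1 was at 37.0, 21.6, 50.9 and 43.3 CPM against 7.99 and 5.18 CPM (Log2FC -2.54 ± 0.46, edgeR adjusted p = 0.0166). The summed level of the list was 420 to 853 CPM in the spinal cord and 223 and 257 CPM in the brain, so the spinal cord libraries lay higher throughout. All 22 immune and microglia transcripts had a negative Log2FC (median -1.45), with summed levels of 164 to 402 CPM in the spinal cord and 71.6 and 131 CPM in the brain, but 0 were called by edgeR at the adjusted threshold, 4 had an unadjusted p under 0.05, and DESeq2 called 2 and limma-voom 0. Without spinal cord library 4, the highest, the median was -0.93. Carry-over from leg muscle at the mean sarcomere share of the spinal cord libraries would amount to 31.9% of the thbs4 level, 28.4% of that of CRYAA, 9.4% for mical2 and 6.1% for SERPINF1, and less for every other spinal cord call. The part of coverings, blood cells or muscle in the spinal cord calls was not tested beyond these values.

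Leg muscle set the brain and spinal cord calls apart as well. Its mean was under 1 CPM for 118 of the 166 brain calls and for 37 of the 117 spinal cord calls, beside 26.3% of all transcripts tested. Leg muscle exceeded the brain for 9 of the brain calls and the spinal cord for 31 of the spinal cord calls. The matching shares over all transcripts were not counted, so it cannot be said whether these counts are high or low. A test of the difference between brain and spinal cord calls was not made.

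Lists of general cell functions had no edgeR calls, and for ribosomal and respiratory chain transcripts 1 brain library decided the direction. Of 67 ribosomal protein transcripts, 64 had a positive Log2FC (median 0.69), yet the median difference was -0.78 to 0.35 for brain library 1 against the spinal cord libraries and 0.74 to 1.83 for brain library 2. Respiratory chain transcripts did the same, with 48 of 56 positive (median 0.38) and a median of -0.25 without brain library 2. Proteasome subunits had a median Log2FC of -0.32. Of these 3 lists, 4, 1 and 1 transcripts had an unadjusted p under 0.05, and DESeq2 called 1, 1 and 0 and limma-voom none. In contrast, the medians of the neuropeptide, photoreceptor, GABA and monoamine receptor lists were above 0, and those of the myelin, node, annexin and spinal factor lists below 0, for all 8 pairs of libraries. These pairs reuse the same libraries and are not independent. Lists with few or no calls did the same, such as synaptic vesicle genes (above 0) and lipid and immune genes (below 0). A list's median and its summed level can differ in direction. The summed synaptic vesicle level was 5509 and 5280 CPM in the brain libraries and 5705 to 7401 CPM in the spinal cord libraries.

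**Figure D4:**
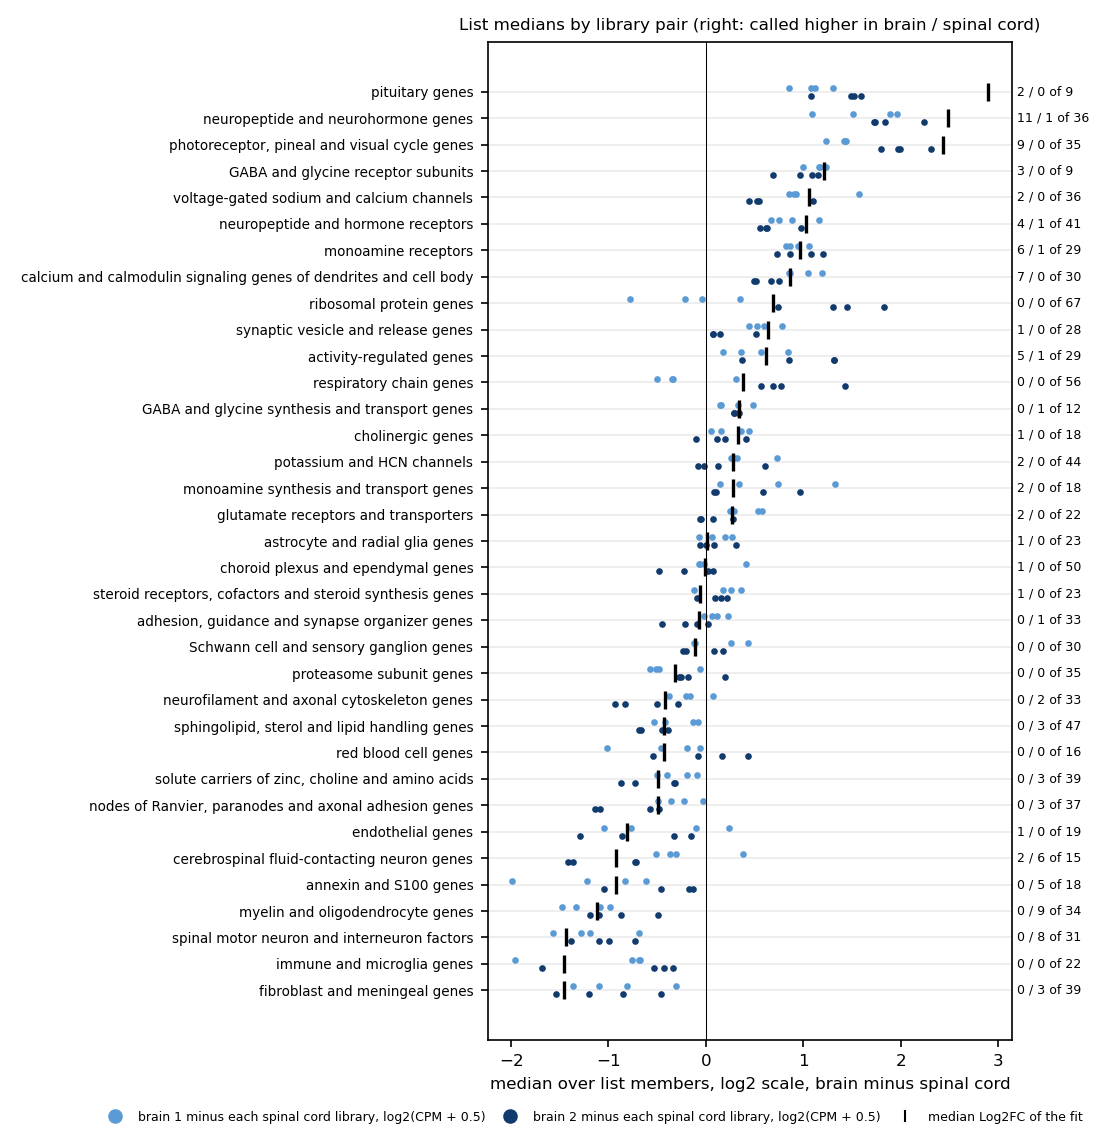
Each row is a gene list; dots are the median over its members of the difference in log2(CPM + 0.5) between a brain library and each of the 4 spinal cord libraries (light, brain 1; dark, brain 2), and the bar is the list's median Log2FC in the fit. The neuropeptide, photoreceptor, monoamine receptor, peptide receptor and GABA and glycine receptor lists lie right of 0 and myelin, annexin and spinal factor lists left of 0 for both brains, while the ribosomal list lies on both sides; counts at the right give calls higher in brain and in spinal cord of the transcripts tested.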

How the data were processed

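RNA of brain, spinal cord and leg muscle was sequenced with a stranded mRNA kit. The authors used STAR 2.7 for alignment and htseq-count for counting at transcript level, and what they deposited are raw counts for 23777 transcripts or sets of transcripts, of which 1432 are sets. The strand setting and the htseq-count version are not given in the sources used here. Its 5 summary lines, which hold most entries of each library, were left out. Names came from the deposited annotation of 22603 entries.

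Counts were filtered with filterByExpr (minimum count 10, minimum total 15), scaled by TMM and fitted with all 11 libraries and 1 coefficient per tissue by edgeR 4.0.16 in R 4.3.3 (glmQLFit, legacy = TRUE). The Benjamini-Hochberg threshold was 0.05. The SE is the Log2FC over the square root of F. DESeq2 1.42.0, limma-voom (limma 3.58.1) and other alternatives were run. On simulated counts for this comparison, run on 13103 transcripts, 1.49%, 38.8% and 74.2% of changes of 2, 4 and 8 times were recovered, and 2 unchanged transcripts were called. Changes were set only in transcripts with a mean above 1 CPM in the nervous libraries. Apart from these changes, all tissues, leg muscle included, shared the same means, and no library or lane effect was simulated. The rates may therefore not hold for the data. A library's count of 0 allows 0.0841 to 0.134 CPM in the 6 libraries. Floors and intervals cover counting error only. The labels call the libraries biological replicates and name no frog.

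The libraries compared, the 38 gene lists, the naming rule and the alternatives were chosen with earlier results of these data known. Named are, outside the HOX and the forebrain and midbrain lists, the 15 named transcripts with the lowest p in each direction, those called in every leave-one-out fit, up to 4 called members of each list (all, where 5 or fewer), and gene IDs called more than once. The 15 with the lowest p were limited to transcripts whose libraries did not overlap between the tissues, which held for every call. Lists are described by counts and medians without a test. Some transcripts meeting this rule are left unnamed in the text and figures.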

Additional observations from a re-analysis of the deposited data

Results flagged for a closer look

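In 10 of the 106 transcripts named by the rule, 1 of the 4 spinal cord libraries stood apart from the other 3 by Dixon's criterion at the 95% level, which chance gives in about 1 of 20 groups of continuous values. The other 3 libraries had no read for UCN (library 2, 0.0446 CPM), NPS (library 3, 0.0291 CPM), TPH1 (library 1, 0.0766 CPM), pitx1 (library 3, 0.0872 CPM), prph2 (library 1, 0.191 CPM) and HDC (library 2, 0.0892 CPM). In these 6 the criterion is met by construction, from 1 to 5 reads against 0, and that chance rate does not apply. OTX2 was at 1.85 CPM in library 4 and at most 0.306 CPM in the others, slc39a9-a was at 259 CPM in library 4 and 189 CPM or less in the others, RD3L was at 0.0872 CPM in library 3 and at least 0.178 CPM in the others, and GRM2 was at 0.230 CPM in library 1 and at least 1.09 CPM in the others.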

How the results depend on the processing

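The main counts were 166 and 117 transcripts higher in brain and in spinal cord. The count moved to 115 and 73 with library totals alone, to 104 in brain with at least 10 counts in 5 libraries, to 282 and 179 with legacy = FALSE, to 76 and 50 with glmTreat against a fold of 2, to 336 and 258 with only brain and spinal cord, to 31 and 67 without the lane 2 spinal cords, to 330 and 454 with DESeq2 and to 443 and 260 with limma-voom. With the replicate number as a block it was 74 and 71. Same-numbered brain and spinal cord libraries had correlations of deviations of 0.125 and 0.131, and others -0.277 to 0.277. The labels tie no number to a frog and 2 pairs cannot settle it, so the numbers were not used as a pairing. Leaving out 1 library gave 22 to 215 and 17 to 160, the lowest without brain replicate 2 in both directions; it was 53 and 25 without brain replicate 1, 108 in brain without spinal cord replicate 1, 81 and 78 without replicate 2 and 71 and 68 without replicate 3. RLE factors, no filter, a minimum count of 50 and counts summed per gene ID kept both counts within 1.5 times. Over 24 alternatives, the 106 named transcripts gave 2521 values, of which 511 missed the threshold. All 2521 kept the direction of the main fit, but this is not a test of direction. The 106 were picked as calls of that fit, and each already had both brains above, or both below, every spinal cord library. Refitting the same counts could hardly reverse them. Of 912 list medians, 87 moved by more than the spread between library pairs. The sign of the main fit was not kept by 34, in 10 lists, which for sarcomere genes means a median of 0. Depth limits transcripts near 0 reads in 1 tissue, whose folds are bounds or wide ratios. There are only 2 brains, and lane, frog and the stretch of spinal cord dissected cannot be told apart.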

Other observations

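Of the 157 brain calls with any read in the spinal cord, spinal cord library 4 was the highest of its tissue in 54, library 1 in 44, library 2 in 41 and library 3 in 18. Of the 166 brain calls, brain library 2 was the higher brain in 105. These counts are given as a description and have no test.

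Of the 283 calls, 20 carried no name, of which 9 were brain calls and 11 spinal cord calls. The unnamed transcript 014571-RA was at 4.19 and 2.44 CPM in the brain and had no read in the spinal cord, at least 126-fold higher by the floor of 3 counts. Transcript 015434-RA was at 69.1 and 209 CPM against 0.0766, 0.178, 0.0872 and 2.68 CPM. In the spinal cord, 002179-RA was at 12.1, 6.38, 2.27 and 3.55 CPM with no read in the brain, at least 139-fold higher, and 005266-RA was at 37.4, 39.6, 5.32 and 7.38 CPM against 0.0607 and 0.0560 CPM. In both, the libraries of lane 2 were the higher ones. By gene ID, 002179-RA lies between HOXA7 (002178-RA) and HOXA3 (002180-RA), and 005266-RA between hoxb3a (005264-RA) and HOXB6 (005267-RA). Whether these 2 unnamed transcripts belong to HOX genes was not tested, so they cannot be placed outside the HOX genes. All 4 unnamed transcripts given here were chosen after their values were seen.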
